A study of Mus musculus with 8 samples.

Results

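The Serpina3 cluster of the mouse is a row of serpin genes on chromosome 12, and 6 of its genes, Serpina3f, Serpina3g, Serpina3h, Serpina3i, Serpina3m and Serpina3n, were among the 1329 genes of the table analysed here. They were found by matching the table's Ensembl identifiers to these symbols. The symbols were picked with earlier results of these data known, and the table's name says that it holds only genes significant between the groups compared here. The tissue was the ascending aorta of mice homozygous for the mgR allele of Fbn1 (Fbn1 mgR/mgR), a Marfan syndrome model that makes too little fibrillin-1, and both groups carried this genotype. In the DT-061 group (4 libraries), mice were dosed by mouth at 5 mg/kg 2 times a day for 4 weeks, starting at 5 weeks of age, with DT-061, a small molecule that activates protein phosphatase 2A. The vehicle group (4 libraries) received the solvent mixture of N,N-dimethylacetamide, Kolliphor HS-15 and water on the same schedule. The allele is carried in the germ line and so acts in the whole animal, no group with normal Fbn1 was analysed here, and no label says that each library is a separate mouse. A p-value here thus reflects only how far these libraries differ, which could be partly technical.

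Serpins are protease inhibitors that present a bait loop to a protease and trap it in a covalent complex when it cleaves the loop. Humans carry a lone SERPINA3 gene, which encodes alpha-1-antichymotrypsin, an acute phase protein of the plasma, whereas in mice the gene has multiplied into this cluster. Mouse Serpina3n is secreted and inhibits granzyme B, cathepsin G and leukocyte elastase, proteases of lymphocytes and myeloid cells that can degrade vessel matrix, fibrillin-1 among the substrates of granzyme B. Mouse Serpina3g, also called Spi2A, stays inside cells and inhibits lysosomal cysteine cathepsins. Genes of the cluster are known to be induced by interleukin-6 through STAT3, by NF-kappaB, by interferon gamma and by glucocorticoids.

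The annotation (GENCODE M21 on GRCm38) places 14 Serpina3 genes within 302 kb, between positions 104112724 and 104414329 of chromosome 12, and 10 of them are protein coding. The 6 genes of the table lie in the distal 200 kb, all on the plus strand. Serpina3f (ENSMUSG00000066363) spans 104214544 to 104221129, Serpina3g (ENSMUSG00000041481) spans 104236245 to 104241939 and Serpina3h (ENSMUSG00000041449) spans 104247905 to 104253669. Serpina3i (ENSMUSG00000079014) spans 104263122 to 104269372, Serpina3m (ENSMUSG00000079012) spans 104338486 to 104394257 and Serpina3n (ENSMUSG00000021091) spans 104406729 to 104414329. Of the 6 genes, 5 are protein coding and Serpina3h is annotated as a transcribed unprocessed pseudogene. The other 8 genes of the cluster, 5 of them coding (Serpina3a, Serpina3b, Serpina3c, Serpina3j and Serpina3k), were not in the table and were not analysed here.

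**Figure D1:**
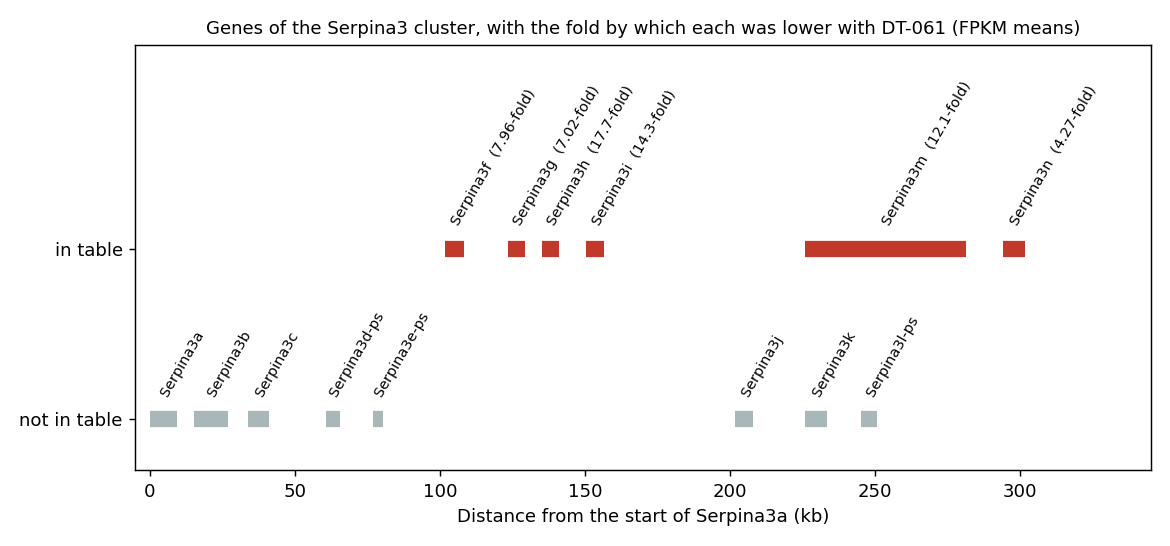
Map of the 14 annotated Serpina3 genes, with distance from the start of Serpina3a in kb on the horizontal axis. Red bars are the 6 genes in the table, each labelled with the fold by which its mean FPKM was lower with DT-061 than with vehicle (4.27-fold to 17.7-fold), and grey bars are the 8 genes not in the table.

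Because the genes are close copies, reads have to tell them apart. Coding sequences were 79.7% to 90.4% identical over the 15 pairs, for Serpina3h over the matching stretch of its transcript. Pairs with Serpina3g covered 1074 aligned bases, or 987 with Serpina3h, against 1254 between Serpina3f and Serpina3n. The 60 bases that follow are the stretch in which the 5 coding members differ most (72.5% mean pairwise identity), bases 1147 to 1206 counted from the first base of the start codon in Serpina3n. Capitals mark bases that differ from Serpina3n.
Serpina3f: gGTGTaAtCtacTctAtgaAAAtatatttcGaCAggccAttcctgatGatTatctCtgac
Serpina3g: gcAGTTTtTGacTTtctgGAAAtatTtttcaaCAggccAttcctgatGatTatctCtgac
Serpina3i: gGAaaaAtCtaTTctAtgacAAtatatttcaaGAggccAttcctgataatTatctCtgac
Serpina3m: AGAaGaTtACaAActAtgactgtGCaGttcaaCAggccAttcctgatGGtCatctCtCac
Serpina3n: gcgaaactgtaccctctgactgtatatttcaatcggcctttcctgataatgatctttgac
No stretch of 150 bases, the length of a read here, was shared letter for letter with any other annotated gene in the longest transcripts of Serpina3f, Serpina3g, Serpina3h, Serpina3i and Serpina3n. In Serpina3m, 5 of 1510 such stretches (0.331%) were also in Serpina3k, and the annotated bounds of Serpina3m enclose Serpina3k. The sources used here do not state how reads that fit several genes were counted, so the value of Serpina3m in particular may hold reads of Serpina3k. In the 60 bases in which the 5 coding members are most alike (bases 1057 to 1116, 97% mean pairwise identity), Serpina3m matched Serpina3n throughout. Exact matches do not cover reads placed with mismatches. Vehicle libraries held 31363 fragments of Serpina3n in all, against 219 of Serpina3f, 166 of Serpina3m, 65 of Serpina3i and 41 of Serpina3h. Whether reads of Serpina3n entered these low counts was not tested.

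Promoter windows, 250 bases before to 50 after the annotated start, were taken from RefSeq on GRCm38.p6, which matched 4 of the 6 members: Serpina3f, Serpina3g, Serpina3i and Serpina3n. They are shown because these members were all lower with DT-061 and genes of their inducing pathways are described below. Capitals mark matches, read on both strands, to the STAT motif TTCNNNGAA, the C/EBP motif TTGCNNAA, a consensus NF-kappaB motif and a consensus glucocorticoid receptor motif.
Serpina3f, chr12:104214294-104214593, plus strand: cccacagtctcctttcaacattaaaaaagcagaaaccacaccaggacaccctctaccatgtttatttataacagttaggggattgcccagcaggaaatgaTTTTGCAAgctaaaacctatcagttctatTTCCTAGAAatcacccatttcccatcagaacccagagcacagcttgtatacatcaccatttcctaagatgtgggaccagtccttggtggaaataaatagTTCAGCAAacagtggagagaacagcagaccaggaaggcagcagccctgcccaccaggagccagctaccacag
Serpina3g, chr12:104235897-104236196, plus strand: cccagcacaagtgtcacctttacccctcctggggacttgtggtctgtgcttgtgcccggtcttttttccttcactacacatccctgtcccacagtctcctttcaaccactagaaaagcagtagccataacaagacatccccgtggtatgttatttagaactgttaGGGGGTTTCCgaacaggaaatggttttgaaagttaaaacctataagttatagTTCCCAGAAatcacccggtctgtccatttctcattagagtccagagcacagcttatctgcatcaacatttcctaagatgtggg
Serpina3i, chr12:104262872-104263171, plus strand: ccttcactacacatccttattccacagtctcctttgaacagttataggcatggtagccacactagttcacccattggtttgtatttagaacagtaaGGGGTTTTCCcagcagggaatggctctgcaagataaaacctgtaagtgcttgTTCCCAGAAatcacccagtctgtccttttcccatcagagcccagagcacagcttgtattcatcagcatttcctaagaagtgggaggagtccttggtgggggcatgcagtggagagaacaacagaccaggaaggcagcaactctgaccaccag
Serpina3n, chr12:104406458-104406757, plus strand: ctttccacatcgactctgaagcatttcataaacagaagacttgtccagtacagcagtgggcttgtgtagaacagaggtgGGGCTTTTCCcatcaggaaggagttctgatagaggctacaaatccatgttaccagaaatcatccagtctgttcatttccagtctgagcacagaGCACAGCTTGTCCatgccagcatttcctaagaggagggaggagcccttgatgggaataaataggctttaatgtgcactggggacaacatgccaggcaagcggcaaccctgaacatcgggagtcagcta
The STAT motif began 121 bases before the start in Serpina3f, 33 bases before it in Serpina3g and 102 bases before it in Serpina3i. Of 32851 RefSeq promoter windows of this length, 8.3% hold it. RefSeq gives another start for Serpina3f, whose window is not printed, and the STAT motif began 210 bases before that start. The NF-kappaB motif began 85 bases before the start in Serpina3g, 154 in Serpina3i and 171 in Serpina3n, against a share of 1.63% of all windows. Serpina3n also held the glucocorticoid receptor motif, 78 bases before the start (0.475% of all windows). The same letters lay 75 bases before the start of Serpina3c, and the windows of Serpina3a, Serpina3b and Serpina3j held no match to the glucocorticoid receptor motif. None of these other genes was in the table. The C/EBP motif began 150 and 22 bases before the start of Serpina3f (10.8% of all windows), or 239 and 111 bases before its other start. It also began 152 bases before the start of Serpina3b. These motifs did not overlap one another in the windows shown. Among the 4 windows printed, the TATA motif TATAAA was found in Serpina3f only, 186 bases before the start on the minus strand (13.6% of all windows). The core of the interferon-stimulated response element was in none of the 4 (3.44% of all). Outside the printed windows, the TATA motif began 31 and 29 bases before the start of Serpina3a, 28 before that of Serpina3b and 132 before that of Serpina3c. The window of Serpina3a also held the core of the response element, after the start. Because the members are close copies, matches in several of them are not independent. The shares of all windows therefore do not show enrichment. A match is a description of the letters and not evidence of binding.

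All 6 members fell with DT-061, from the most abundant, Serpina3n, to the pseudogene Serpina3h. Mean FPKM (fragments scaled by transcript length and by the mapped fragments of the library) was 4.27-fold to 17.7-fold lower in the DT-061 group than in the vehicle group. Each had a limma adjusted p under 0.05 on the log2(FPKM + 1) scale, and by the same rule 65.0% of the table's genes were lower and 30.4% higher. Since the table was selected on this comparison, a call by itself sets the members apart from nothing. In 5 of the 6 members every DT-061 library was below every vehicle library, and Serpina3g was the exception. Over the table, 48.2% of genes had no overlap with DT-061 lower, a share that counts every higher gene as not meeting it. No overlap in either direction was seen in 78.3%, so this count does not set the members apart either. The members' median log2 change was -1.02, beside -0.58 over the table, and the median log2 ratio of the group means was -3.30, beside -1.078. The table's medians include the 30.4% of genes that were higher. By log2 change Serpina3h and Serpina3i ranked only 701st and 753rd from the lowest in the table. For Serpina3f, Serpina3h, Serpina3i and Serpina3m the ratio of means rests on 2 to 24 fragments in all DT-061 libraries together. Relative to quantile-normalized libraries, which moved the median of all genes by 0.56 on the log2 scale, all 6 changes stayed negative but only Serpina3g and Serpina3n still passed (-1.35 and -2.06, limma adjusted p = 0.0279 and 0.0101). Rescaling by the median, which moved it by 0.36, kept all 6 calls. Both scalings were computed on the table's genes only, which were selected as significant and were mostly lower. They cannot tell that imbalance from a difference in library scale. Calls lost, gained or reversed under them, here and below, thus do not show which scale is right. Only Serpina3g and Serpina3n, 2 of the 6, averaged at least 1 FPKM over all libraries.

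**Figure D2:**
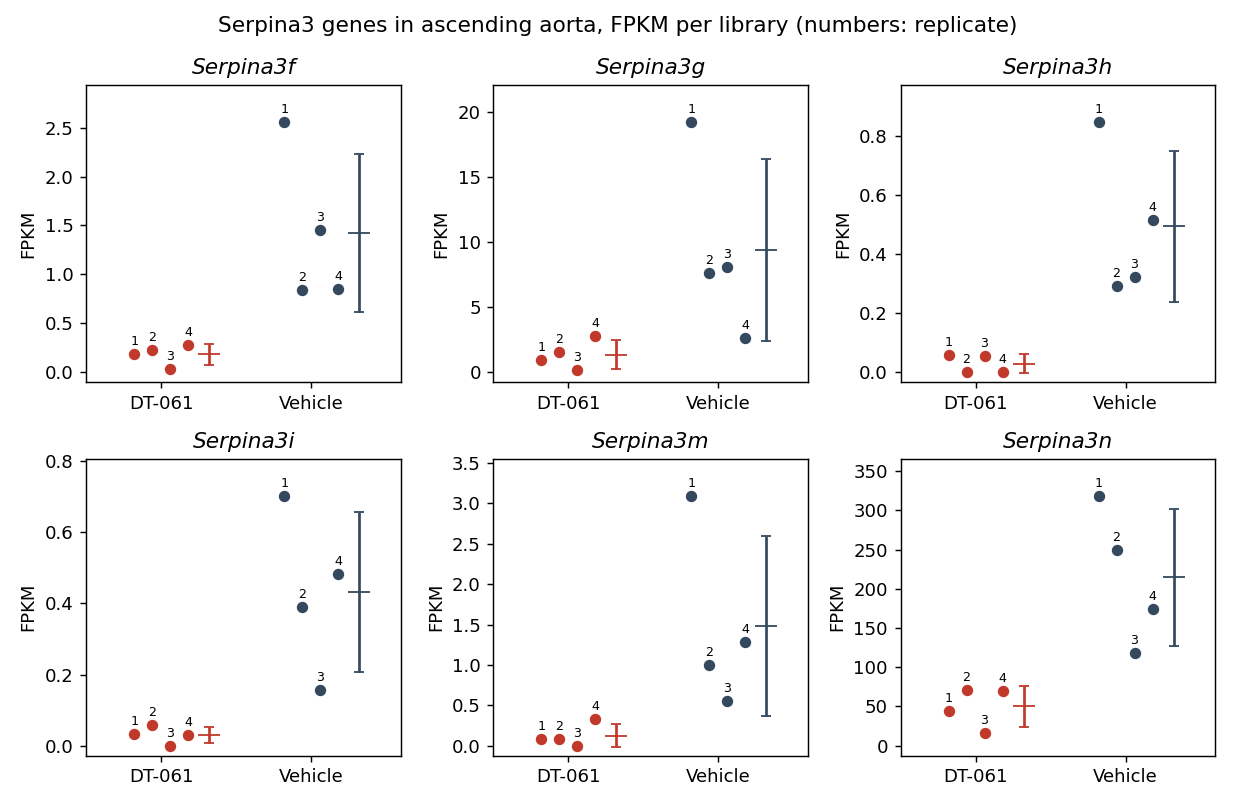
FPKM of the 6 members in each of the 8 libraries, 1 panel a gene, with DT-061 at left and vehicle at right; points are libraries and bars are group means with SD (n = 4). In every panel but that of Serpina3g the highest DT-061 library lies below the lowest vehicle library.

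Serpina3n, the secreted inhibitor of granzyme B, was the 63rd most abundant gene of the table by mean FPKM. It stood at 43.9, 71.0, 16.3 and 70.01 FPKM in DT-061 libraries 1 to 4, against 318, 249, 118 and 174 FPKM in vehicle libraries 1 to 4. All 4 DT-061 libraries lay below all 4 vehicle libraries, with DT-061 library 3 lowest of all and vehicle library 1 highest. The means were 50.3 ± 25.9 FPKM in the DT-061 group and 215 ± 87.4 FPKM in the vehicle group (SD, n = 4 each), a 4.27-fold lower mean. The log2 change was -2.18 ± 0.50 (SE; limma, adjusted p = 0.0158), and the exact two-sided permutation test gave p = 0.0286, the smallest that 4 libraries against 4 allow. These values rest on 489 to 2291 recovered fragments a library with DT-061 and 4250 to 11419 with vehicle, so counting error was small beside the spread between libraries.

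Serpina3g, the intracellular inhibitor of cysteine cathepsins, stood at 0.927, 1.56, 0.115 and 2.75 FPKM in DT-061 libraries 1 to 4, against 19.2, 7.62, 8.09 and 2.63 FPKM in vehicle libraries 1 to 4. The groups overlapped at 1 point, since DT-061 library 4 was above vehicle library 4, while the other 3 vehicle libraries exceeded every DT-061 library. The means were 1.34 ± 1.11 FPKM in the DT-061 group and 9.39 ± 7.004 FPKM in the vehicle group (SD, n = 4 each), 7.02-fold lower with DT-061. The log2 change was -2.03 ± 0.55 (SE; limma, adjusted p = 0.0181), but the exact two-sided permutation test gave p = 0.0571. DT-061 libraries held 144 fragments of this gene in all and vehicle libraries held 1188.

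Serpina3f is a close relative of Serpina3g (90.4% identical over 1074 aligned coding bases). It stood at 0.186, 0.228, 0.0306 and 0.272 FPKM in DT-061 libraries 1 to 4, against 2.56, 0.842, 1.45 and 0.851 FPKM in vehicle libraries 1 to 4. The groups did not overlap, and DT-061 library 3 was again the lowest and vehicle library 1 the highest. Mean FPKM was 0.179 ± 0.105 in the DT-061 group and 1.42 ± 0.806 in the vehicle group (SD, n = 4 each), 7.96-fold lower with DT-061. The log2 change was -0.99 ± 0.22 (SE; limma, adjusted p = 0.0158; exact permutation p = 0.0286). The values rest on 24 fragments in the DT-061 libraries together and 219 in the vehicle libraries.

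Serpina3m, at the distal end of the cluster next to Serpina3n, stood at 0.0839, 0.0771, 0 and 0.328 FPKM in DT-061 libraries 1 to 4, against 3.09, 1.005, 0.552 and 1.28 FPKM in vehicle libraries 1 to 4. No DT-061 library reached the lowest vehicle library, and DT-061 library 3 held no fragment of it. Its means were 0.122 ± 0.142 FPKM in the DT-061 group and 1.48 ± 1.11 FPKM in the vehicle group (SD, n = 4 each), 12.1-fold lower with DT-061. The log2 change was -1.06 ± 0.28 (SE; limma, adjusted p = 0.0176; exact permutation p = 0.0286). In all, 12 fragments in DT-061 libraries and 166 in vehicle libraries were counted.

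Serpina3i stood at 0.0316, 0.0582, 0 and 0.0309 FPKM in DT-061 libraries 1 to 4, against 0.702, 0.389, 0.156 and 0.483 FPKM in vehicle libraries 1 to 4. The groups did not overlap, yet each DT-061 value rests on 0 to 2 fragments. The means were 0.0302 ± 0.0238 FPKM in the DT-061 group and 0.433 ± 0.226 FPKM in the vehicle group (SD, n = 4 each). Its 4 fragments with DT-061 and 65 with vehicle give a rate 13.8-fold lower with DT-061, with an exact 95% interval of 5.12-fold to 52.0-fold that covers counting error only. The log2 change was -0.46 ± 0.11 (SE; limma, adjusted p = 0.0168; exact permutation p = 0.0286).

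Serpina3h, the pseudogene, stood at 0.0562, 0, 0.0556 and 0 FPKM in DT-061 libraries 1 to 4, against 0.848, 0.291, 0.323 and 0.514 FPKM in vehicle libraries 1 to 4. Every vehicle library was higher than every DT-061 library, and DT-061 libraries 2 and 4 held none of its fragments. Its means were 0.0280 ± 0.0323 FPKM in the DT-061 group and 0.494 ± 0.256 FPKM in the vehicle group (SD, n = 4 each). With 2 fragments under DT-061 and 41 under vehicle, the rate was 17.3-fold lower with DT-061 (exact 95% counting interval 4.51-fold to 148.1-fold). The log2 change was -0.53 ± 0.12 (SE; limma, adjusted p = 0.0158; exact permutation p = 0.0286). The deposited values cannot show whether these few fragments come from the pseudogene itself or from a close copy.

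Summed over the 6 members, DT-061 libraries held 52.0 ± 27.1 FPKM and vehicle libraries 228 ± 94.6 FPKM (SD, n = 4 each), a 4.38-fold lower mean with no overlap (16.5 to 73.4 FPKM with DT-061, 128.4 to 344.5 FPKM with vehicle). Serpina3n made up nearly all of this sum, 97.2% ± 1.39 in DT-061 libraries and 94.2% ± 2.56 in vehicle libraries (SD, n = 4 each). The other 5 members together held 1.70 ± 1.33 FPKM in the DT-061 group and 13.2 ± 9.06 FPKM with vehicle, 7.79-fold lower with DT-061. In every library Serpina3n stood above Serpina3g and Serpina3g above the other 4, and Serpina3f, Serpina3m, Serpina3h and Serpina3i were near or under 1 FPKM in most. Serpina3f and Serpina3m, with vehicle means of 1.42 and 1.48 FPKM, differed by less than their spread, as did Serpina3h and Serpina3i, with 0.494 and 0.433 FPKM.

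Whether the members changed by unequal amounts depended on how low values were treated. The log2 ratio of each member to Serpina3n was compared between the groups by exact two-sided permutation, adjusted over the 5 ratios. With a pseudocount of 1 FPKM, the ratio was higher with DT-061 by 1.65 for Serpina3h, 1.71 for Serpina3i and 1.12 for Serpina3m (exact p = 0.0286 and adjusted p = 0.0476 for each). It was higher by 1.19 for Serpina3f (exact p = 0.0857, adjusted p = 0.107) and by 0.15 for Serpina3g (exact permutation p = 0.771). With a pseudocount of 0.1 FPKM the same differences were 0.047 for Serpina3h, 0.27 for Serpina3i, -0.58 for Serpina3m, -0.21 for Serpina3f and -0.71 for Serpina3g, and no adjusted p was below 0.643 in the exact test. With no pseudocount, an alternative chosen after seeing the data, the difference was -1.01 for Serpina3f (exact permutation p = 0.0857) and -0.98 for Serpina3g (exact permutation p = 0.229). The sign therefore turned with the pseudocount for Serpina3f, Serpina3g and Serpina3m, and an unequal change of the members cannot be read from these values. By the ratio of means, Serpina3h, Serpina3i, Serpina3m, Serpina3f, Serpina3g and Serpina3n ranked 60th, 71st, 81st, 126th, 143rd and 288th among the table's falls, whereas by log2 change of FPKM + 1 Serpina3n ranked 43rd and Serpina3i 753rd.

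**Figure D3:**
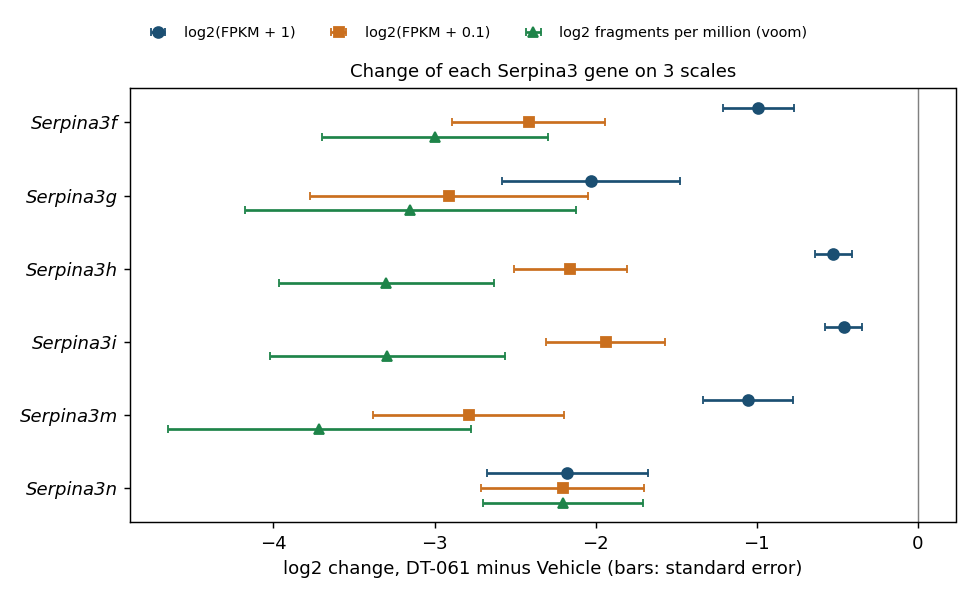
Log2 change of each member, DT-061 minus vehicle, with a pseudocount of 1 FPKM, with a pseudocount of 0.1 FPKM and with voom on recovered fragments; bars are standard errors (n = 4 libraries a group). Serpina3n stays between -2.18 and -2.21, whereas Serpina3i runs from -0.46 to -3.29.

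Within the groups, the members kept some order across libraries. Vehicle library 1 was the highest vehicle library for all 6 members, and DT-061 library 3 was the lowest DT-061 library for Serpina3f, Serpina3g, Serpina3i, Serpina3m and Serpina3n. For Serpina3h, DT-061 library 3 held 1 fragment and was not the lowest. Vehicle library 4, the lowest vehicle library for Serpina3g, ranked second for Serpina3h, Serpina3i and Serpina3m. As a description over the 8 libraries, deviations from the group means correlated between Serpina3i and Serpina3m (Pearson r = 0.91), between Serpina3h and Serpina3m (r = 0.85) and between Serpina3f and Serpina3g (r = 0.83), and least between Serpina3h and Serpina3n (r = 0.19). The members share libraries, and the low ones have few fragments, so these values carry no test. Without DT-061 library 3 and vehicle library 4, all 6 members still fell, with log2 changes of -1.79 for Serpina3n and -2.14 for Serpina3g (limma adjusted p = 0.00915 and 0.00641).

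The genes whose profile was most like that of a member were taken by Pearson r of log2(FPKM + 1) over the 8 libraries among the other 1328 genes of the table, with no test. For Serpina3n they were Prg4 (r = 0.991), the gene of the lubricant proteoglycan 4, Il4ra (r = 0.988), the interleukin-4 receptor alpha chain, the antisense RNA Gm15635 and the unconventional myosin Myo7a (r = 0.987 each), and Ccl7 (r = 0.986), a chemokine for monocytes. By deviations from the group means the leading genes were the same 5, with Ccl7 first (r = 0.973) and Myo7a last (r = 0.956). Serpina3g was most like Ly6e (r = 0.996), an interferon-induced surface protein, Bin2 (r = 0.995), a membrane-shaping protein of blood cells, Psmb10 (r = 0.993), a subunit of the immunoproteasome, and the tetraspanin Cd82 and the B cell surface protein Cd72 (r = 0.991 each). By deviations, Ly6e, Bin2 and Psmb10 remained among its leading 5 (r = 0.988, 0.987 and 0.982), while Cndp2 (r = 0.987) and Oas1a (r = 0.981) took the places of Cd82 and Cd72; these 2 genes were named after their values were seen. Vehicle library 1 and DT-061 library 3 lie at opposite ends of the Serpina3n and Serpina3g profiles.

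Among proteases of the kinds that A3 serpins of the mouse inhibit, and their relatives, 4 of 17 listed genes were in the table and all 4 fell, though the values of Ctsz and Ctsh turned positive under median rescaling. Prtn3, the neutrophil protease 3, averaged 0.0823 ± 0.0836 FPKM in the DT-061 group and 1.47 ± 0.148 FPKM in the vehicle group (SD, n = 4 each; log2 change -1.19). Ctss, the elastin-degrading cathepsin S of macrophages, averaged 44.0 ± 22.2 FPKM in the DT-061 group and 165 ± 81.8 FPKM with vehicle (log2 change -1.96). The lysosomal cathepsin genes Ctsz and Ctsh had log2 changes of -0.42 and -0.41. The list's median was -0.81, and its remaining 13 genes, granzyme B (Gzmb) and cathepsin G (Ctsg) among them, were not analysed here. Of 37 other serpins, 3 were in the table. Serpinb1a, an inhibitor of neutrophil proteases, had a log2 change of -0.88, and Serpinb2, plasminogen activator inhibitor type 2, one of -0.34, and neither passed after quantile normalization (-0.13 and -0.060). Serpina1e, an alpha-1-antitrypsin gene upstream of the cluster, averaged 1.14 ± 1.04 FPKM in the DT-061 group and 0.212 ± 0.135 FPKM with vehicle (log2 change 0.71, limma adjusted p = 0.0511). Its groups overlapped, and it did not pass as deposited. It passed as higher after median rescaling (0.86, limma adjusted p = 0.0431) and after quantile normalization (1.21, limma adjusted p = 0.0234). Those scalings moved the median of the table's genes upward by 0.36 and 0.56.

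Genes of the acute phase response, the group to which human SERPINA3 belongs, were lower too. Of 25 listed genes, 9 were in the table and all 9 fell, 8 with no overlap between the groups. Over the table, 48.2% had none with DT-061 lower and 78.3% had none in either direction. Their median log2 change was -2.15, beside -0.58 over the table, a value that includes the genes that were higher. All 9 were also lower after median rescaling, and 7 after quantile normalization. Saa3, a serum amyloid A made outside the liver, had a log2 change of -3.96, and Hp, the haemoglobin scavenger haptoglobin, one of -3.17. Lcn2, the siderophore-binding lipocalin 2, had one of -2.65, and Lrg1, a leucine-rich glycoprotein that modifies TGF-beta signalling in vessels, one of -2.44. The 9 genes summed to 89.3 to 438 FPKM in DT-061 libraries and 899 to 2006 FPKM in vehicle libraries.

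Pathways known to induce genes of the cluster were read from lists that hold targets as well as regulators. Of 25 genes of the interleukin-6 and STAT3 list, 5 were in the table, and all 5 fell (4 passed after median rescaling and 3 after quantile normalization). Stat3, Il6ra and Il6st were listed but not in the table. No overlap was seen in 3 of the 5, beside 48.2% of the table with DT-061 lower and 78.3% in either direction. Il6, the cytokine, averaged 0.262 ± 0.223 FPKM in the DT-061 group and 2.01 ± 1.57 FPKM in the vehicle group (SD, n = 4 each; log2 change -1.10). Socs3, the STAT3-induced feedback inhibitor, averaged 6.05 ± 2.96 FPKM in the DT-061 group and 22.6 ± 7.86 FPKM with vehicle (log2 change -1.78). Bcl3, an atypical inhibitor-of-kappaB protein, had a log2 change of -1.74, Il4ra one of -1.196 and the kinase gene Pim1 one of -0.81. Of 24 NF-kappaB pathway genes, 7 were in the table and all 7 fell (median -1.082), 4 with no overlap, beside the same shares. After median rescaling 6 of them passed, and after quantile normalization 2 did and Tnf turned positive. Among them, the monocyte chemokine Ccl2 had a log2 change of -1.88, the signalling adaptor Traf1 one of -1.26, Tnfaip2 one of -1.16 and Il1rn, the interleukin-1 receptor antagonist, one of -1.082.

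Of 31 interferon gamma response genes, 19 were in the table, all of which fell (median -0.93), 16 with no overlap. After median rescaling 12 passed, and after quantile normalization 8 did and Gbp4 and Gbp9 turned positive. Irf8, a transcription factor of myeloid cells, had a log2 change of -1.84 and the chemokine Cxcl9 one of -1.62. Ciita, the master regulator of class II antigen presentation, had one of -1.29 and the immunoproteasome subunit Psmb8 one of -1.22. None of 12 listed glucocorticoid response genes was in the table, so that branch was not analysed here. Each of these counts is to be read beside the 65.0% of the table that was lower. Counts without overlap stand beside the 48.2% that was lower with no overlap and the 78.3% with none in either direction. No test of the lists was made. Within 1 Mb on either side of the members, 3 other genes were in the table: Serpina1e, Unc79 and Ifi27l2a. Unc79, of the NALCN channel complex, averaged 0.0246 FPKM in the DT-061 group and 0.0952 FPKM with vehicle. It did not pass as deposited (log2 change -0.10, limma adjusted p = 0.0761). Quantile normalization turned its change positive (0.17, limma adjusted p = 0.0306). Ifi27l2a, an interferon-induced gene, fell, with a log2 change of -1.503.

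Markers of other cells moved with the members as deposited, and in bulk tissue fewer cells of a type and less RNA per cell cannot be told apart. Of 14 monocyte and macrophage markers, 5 were in the table and all 5 fell, with summed levels of 17.9 to 90.0 FPKM in DT-061 libraries and 100 to 429 FPKM in vehicle libraries. Of 13 T and NK cell markers, 10 were in the table, 9 fell and Cd3e did not pass (limma adjusted p = 0.0534), and their sum was 2.46 to 8.35 FPKM in the DT-061 group and 6.67 to 79.3 FPKM with vehicle. Vehicle library 4, the lowest vehicle library for Serpina3g, was also the lowest in this sum, and vehicle library 1 was the highest. After quantile normalization none of the 10 passed and Prf1 turned positive. B and plasma cell markers (4 of 10 in the table, all lower, with 3 passing after median rescaling and 2 after quantile normalization) summed to 20.003 to 51.4 FPKM in the DT-061 group and 88.2 to 2276 FPKM with vehicle. Neutrophil markers (3 of 11, all lower) summed to 0.569 to 2.46 FPKM in the DT-061 group and 1.46 to 24.8 FPKM with vehicle, with S100a9 at 0 in DT-061 library 3 and vehicle library 4, and none of the 3 passed after quantile normalization. DT-061 library 3 was the lowest library in each of these 4 sums, as for most members.

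Smooth muscle markers, which define the tissue, ran the other way: 6 of 8 were in the table and all 6 rose, with summed levels of 15310 to 22968 FPKM in DT-061 libraries and 8382 to 13257 FPKM in vehicle libraries, though after quantile normalization 4 passed and Acta2 turned negative. Fibroblast markers had 2 of 9 genes in the table, Lum and Cthrc1, and both fell (1 passed after median rescaling). Of 11 hepatocyte markers, which would mark liver RNA, only Apoa1 was in the table, at 0.0820 ± 0.0342 FPKM in the DT-061 group and 0.566 ± 0.118 FPKM in the vehicle group (SD, n = 4 each), a fall that was not seen after quantile normalization (log2 change 0.017). None of 7 endothelial or 7 adipocyte markers was in the table. Only markers in the table could be read, none of the marker sums was 0 in any library, and the part of these cells in the change of the Serpina3 genes was not tested.

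**Figure D4:**
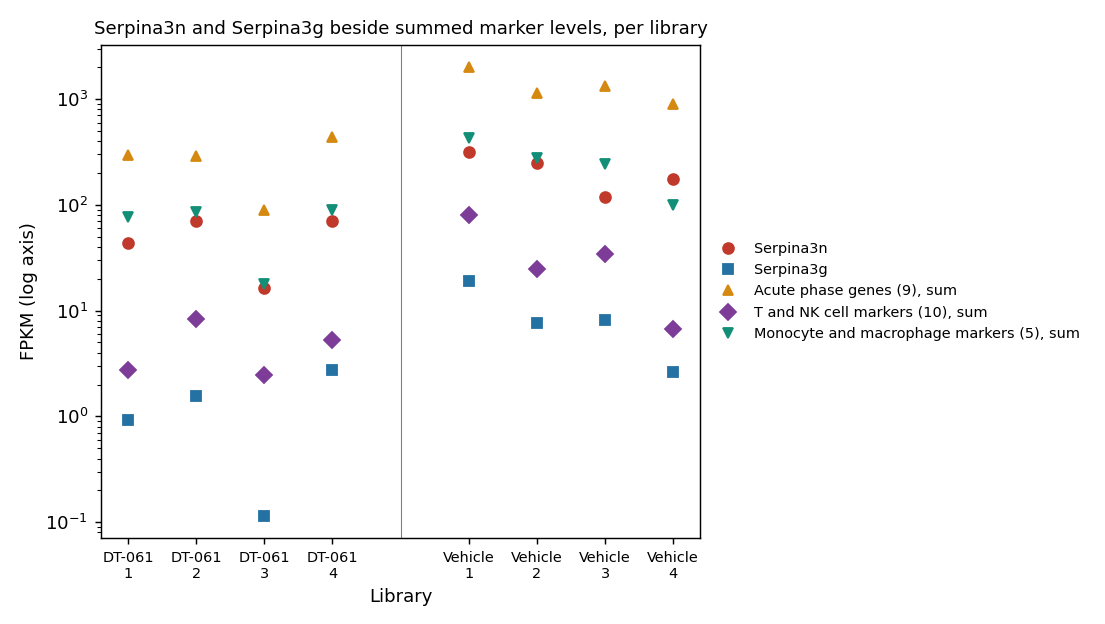
Serpina3n and Serpina3g in each library beside the summed FPKM of the 9 acute phase genes, 10 T and NK cell markers and 5 monocyte and macrophage markers in the table (log axis), with DT-061 libraries 1 to 4 left of vehicle libraries 1 to 4. All 5 quantities are lowest in DT-061 library 3 and highest in vehicle library 1, and only Serpina3g and the T and NK cell sum overlap between the groups.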

How the data were processed

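Poly-A RNA of 8 ascending aorta libraries (4 DT-061, 4 vehicle) was sequenced as 150-base paired-end reads, per the labels' protocols. The submitters' processing notes name, without roles, featureCounts 1.5.0-p3, HISAT2 2.0.5, StringTie 1.3.3b and mm10. The sources used here state neither the strand setting nor how reads that match several genes were handled. The deposited values are FPKM made by the authors, for 1329 genes that the table's name calls significant, by a tool and threshold that are not stated. Symbols were found for 1328 identifiers. Members and gene lists were chosen with earlier results of these data known.

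FPKM times the longest transcript's length (GENCODE M21) came in whole steps: at the depth chosen, 68.1% to 86.4% of low values (up to 25 fragments) were within 0.05 of a whole number, against 7.51% to 9.43% at the median step tried, and all 22 low values of the members were whole. Recovered depths were 14400000 to 15600000 fragments in DT-061 libraries and 14100000 to 22200000 in vehicle libraries. Intervals on fragments cover counting error only. No 2 libraries were identical.

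The test was limma 3.58.1 (R 4.3.3) with trend and robust options on log2(FPKM + 1), and calls were made at a Benjamini-Hochberg adjusted p under 0.05 over all 1329 genes; 1274 genes had an unadjusted p under 0.05. A fold is a ratio of mean FPKM, and a log2 change is on the log2(FPKM + 1) scale, which understates the change of low genes. "Rose" and "fell" mean past that threshold. Exact permutation tests enumerated all 70 assignments of 4 libraries to each group. The depth recovery and the limma fit were tested on simulated data. Named genes are the 6 members, the 5 genes most like each member with a mean of at least 1 FPKM, and from each list all genes in the table where there were 5 or fewer, otherwise up to 4 with the largest change and a mean of at least 1 FPKM. Marker lists are given mainly by their sums. Coding sequences were aligned with MAFFT 7.526, and promoters came from RefSeq (GRCm38.p6).

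The settings tried instead were a smaller pseudocount (0.1), a floor of 1 on mean FPKM, limma without trend and robust options, median rescaling, quantile normalization, a replicate block, leaving out each library and leaving out DT-061 library 3 with vehicle library 4. Voom on recovered fragments and ratios with no pseudocount were added after seeing the data.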

Additional observations from a re-analysis of the deposited data

Results flagged for a closer look

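The log2 ratio of Serpina3m to Serpina3n, with a pseudocount of 1 FPKM, was -6.96 in vehicle library 2, against -6.29, -6.26 and -6.26 in vehicle libraries 1, 3 and 4, a gap larger than Dixon's 95% critical value for 4 samples allows. In the DT-061 libraries the same ratio ran between -6.06 and -4.11. Of 28 groups of values looked at, this was the only one to pass, and chance passes about 1 in 20.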

How the results depend on the processing

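The log2 changes of the 6 members stayed negative in all 98 alternative values and kept their side of the threshold in 93. Quantile normalization, which moved the median of all genes by 0.56, left 2 of 6 members past it: Serpina3f (-0.29), Serpina3h (-0.078), Serpina3i (-0.087) and Serpina3m (-0.44) no longer passed limma's threshold, and the table's calls were 394 higher and 209 lower, against 404 and 864 as deposited. Median rescaling moved the median by 0.36 and gave 434 higher and 580 lower, with all 6 members lower. Both scalings used only the table's genes, which were mostly lower, and cannot tell that imbalance from a difference in library scale. A minimum mean of 1 FPKM left 2 members to test, both lower. Serpina3g (-2.03) had p = 0.0571 in the exact permutation test. Leaving out each library in turn kept 6 members lower each time, with ranges of -2.43 to -1.72 for Serpina3n and -2.45 to -1.63 for Serpina3g; the table's higher calls ran from 254 (without vehicle library 3) to 351.

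The differences between the groups (DT-061 minus vehicle) in the log2 ratio to Serpina3n depended on the pseudocount. At 0.1 they were -0.21 (Serpina3f), -0.71 (Serpina3g), 0.047 (Serpina3h), 0.27 (Serpina3i) and -0.58 (Serpina3m); with none, -1.01 (Serpina3f) and -0.98 (Serpina3g). Leaving out each library gave 1.18 to 1.89 for Serpina3h, 1.27 to 1.94 for Serpina3i, 0.72 to 1.37 for Serpina3m and -0.21 (without vehicle library 4) to 0.42 for Serpina3g. Without DT-061 library 3 and vehicle library 4 they were 1.26, 1.36, 0.78 and -0.35. The exact p cannot go below 0.0571 with 3 against 4 libraries or 0.1 with 3 against 3, so a lost call there says nothing about stability.

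Replicate numbers did not pair the libraries: same-number deviations correlated at -0.47 to 0.18, and 1 of 8 libraries correlated best with its own number. With the replicate as a block, all 6 members were lower (limma adjusted p = 0.0460 each) and the table had 630 lower and 204 higher calls. For Serpina3h and Serpina3i, depth limits the size of the change. Causes were not tested.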
